A study of Homo sapiens with 72 samples.

Results

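The response of human U2OS cells to sodium arsenite was measured by RNA sequencing in cells labelled as knockouts of G3BP1 and G3BP2 that had been given wild-type G3BP1 back. The comparison sets 2 treated against 2 untreated libraries, and its members are all 61541 Ensembl gene rows of the authors' table for it, the 4 rows of read-counting totals left out. The whole series holds 676951 such gene rows over 11 tables. U2OS is an established osteosarcoma line. Every group used here, the controls too, carries the labelled knockout of both genes, whose RNAs were still read in all of them, and protein was not measured. The untreated group, wild-type rescue, was transiently transfected by Lipofectamine with a WT G3BP1 transgene and collected 24 h later, and the treated group had the same transfection and 200 uM sodium arsenite for 2 h. For comparison, the same arsenite treatment was applied to knockout cells that were not transfected and to knockout cells transfected with a G3BP1 form whose NTF2 domain, the part through which G3BP1 pairs with itself and with partner proteins, was deleted. Each of these groups also has 2 libraries. Transient transfection leaves a mixture of cells that took up different amounts of the transgene, and no group was transfected without a transgene, so an effect of transfection and an effect of G3BP1 cannot be told apart in any comparison with the knockout. The labels do not say whether the libraries of a group come from separate cultures, so p-values measure the spread between these samples, which may be technical.

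Arsenite is a trivalent metalloid that binds thiol groups of proteins, damages newly made proteins and generates oxidants. Cells answer it by several routes at once: MTF1 turns on metallothionein genes when zinc is released, HSF1 turns on chaperone genes when proteins misfold, NRF2 turns on antioxidant genes when KEAP1 thiols are modified, stress-activated MAP kinases turn on AP-1 and other immediate-early genes, and the kinase HRI phosphorylates eIF2alpha, which lowers translation and favours ATF4. The stalled mRNAs then gather with G3BP1 and other RNA-binding proteins in stress granules, and cells without G3BP1 and G3BP2 do not form these granules under arsenite. RNA in whole cells was measured here, so fewer cells with a transcript and less of it per cell cannot be told apart.

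Reads assigned to genes numbered 14239496 and 13782901 in the untreated and 27755473 and 19074162 in the treated libraries, so the treated group was sequenced more deeply. The whole reads of each library were recovered from the deposited base means, and levels below are scaled reads, that is, reads divided by the library's size factor. Libraries of 1 group were not copies of each other: they had a mean squared standardised difference of 1.78 between the untreated and 2.17 between the treated libraries, where chance in drawing reads alone gives about 1. G3BP1 (ENSG00000145907), the transgene, stood at 621709.5 and 591137 scaled reads without and 784731 and 803026 with arsenite, against 3815 and 3884 in untreated knockout cells. It took 4.02% and 3.83% of gene reads in the untreated and 5.04% and 5.17% in the treated libraries, and the authors' deposited table put its log2 change at 0.37 (SE 0.04, adjusted p 8.87e-20). The part of this rise in transgene reads in the changes below was not tested. G3BP2 was at 2402 and 2432 and 2581 and 2648 scaled reads and at a log2 fold change of 0.09 (adjusted p 0.148) per the authors' deposited table. Of 9 osteoblast lineage markers, 5 passed the authors' filter on low reads, COL1A1, RUNX2, ALPL, SPARC and SPP1, while IBSP was at 0 reads in all 4 libraries and SP7 and BGLAP stayed at no more than 3.4 scaled reads. COL1A2 did not pass, at a mean of 12.7 scaled reads without and 11.2 with arsenite. Summed over the list, osteoblast markers gave 13921 and 14041 scaled reads without and 10001 and 10146 with arsenite, SPARC and SPP1 being the members that fell (-0.69 and -0.73 per the authors' deposited table). Haematopoietic markers summed to between 162 and 190.3 scaled reads, nearly all of them ITGAM, and endothelial markers to between 25 and 29.2. Embryonic kidney line markers summed to between 950.8 and 1075.5, most of these reads being of LIN28B and NEFL. Epithelial markers summed to between 8183 and 8905, which KRT8 and KRT18 made up almost alone, with CLDN7 at 0 reads and ESRP1 at up to 1.1.

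Arsenite raised 1116 genes and lowered 1667 in wild-type rescue, or 8.18% and 12.2% of the 13635 genes that the authors' deposited table tests. The threshold was an adjusted p under 0.05, and a gene past it is named called here. The lowered genes outnumbered the raised ones, but the large changes were rises: 28 genes were called higher by at least 1 on the log2 scale and 6 lower by as much, and the 10 changes of at least 2 were all rises. The median log2 fold change was 0.25 among genes called higher, -0.37 among genes called lower and 0.0094 over all genes tested, per the authors' deposited table. The highest values belonged to genes of metal binding (MT1X, MT1G, MT1E), protein folding (HSPA6, HSPA1B, HSPA1A, DNAJB1), haem breakdown (HMOX1) and the immediate-early response (FOS, EGR2), and the 10 lowest, in order, to SMPD4P1, ID1, RN7SL1, MAMDC4, MROH6, PRR7-AS1, RN7SL3, SNHG3, RPL36A and CCN1, counting called genes whose base mean is 100 or more. For each called gene both treated libraries lay on the same side of both untreated ones. The call itself selects such genes, so this is no separate evidence. Centring the fold changes on their median gave 930 higher and 1781 lower, and limma on the recovered reads called 1836 and 2229, among them every gene called per the authors' deposited table. Scaled by gene reads without G3BP1 instead, limma called 2310 higher and 1994 lower, so which direction has more genes depends on the scaling.

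**Figure D1:**
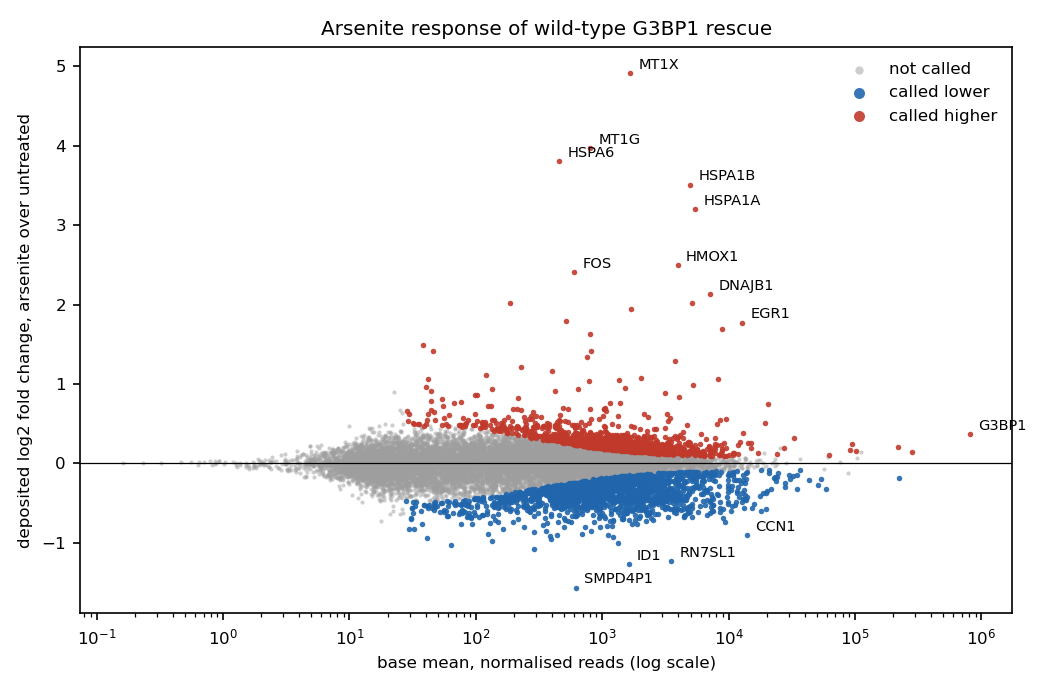
Deposited log2 fold change (y axis, arsenite over untreated wild-type rescue) against the deposited base mean in normalised reads (x axis, log scale), 1 point per gene, red for 1116 genes called higher, blue for 1667 called lower and grey for genes not called or not tested. Rises reach 4.92 for MT1X, while falls end at -1.56 for SMPD4P1.

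The metal-binding genes gave the highest fold changes. Metallothioneins are small cysteine-rich proteins that hold zinc, copper and arsenic, and the zinc exporter SLC30A1 is induced with them by MTF1. All 5 of the 12 listed genes that passed the low-read filter were called higher, with a median log2 fold change of 2 per the authors' deposited table, against 0.0094 over all genes tested. MT1X (ENSG00000187193) had 59.8 and 58.2 scaled reads without and 2846 and 2848 with arsenite, 48.3-fold more, and 4.92 (SE 0.11, adjusted p listed as 0) on the log2 scale per the authors' deposited table. MT1G went from 57.6 and 48.1 to 1389 and 1295 scaled reads, a 25.4-fold rise (3.98 per the authors' deposited table). MT1E, already well expressed at 1689 and 1752, reached 7238 and 7109 (2.01 per the authors' deposited table). MT2A rose from 13099.5 and 13061 to 23061 and 21616, a log2 fold change of 0.75 per the authors' deposited table. SLC30A1 rose from 1836 and 1886 to 4757 and 4563 (1.29 per the authors' deposited table). MT1X and MT1G, with few untreated reads, thus rose most, and in none of the 5 genes did the groups overlap, as held for every called gene. Metallothionein genes are alike in sequence. Reads that mapped to several places were totalled apart from genes, so reads of these copies may be missing or assigned to another copy. The deposited fold changes are moderated toward 0, and for MT1X and MT1G the ratio of scaled reads is larger than the deposited value gives.

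The promoters of MT1X and MT2A are shown because the metal response motif that MTF1 reads recurs in both. The 250 bases before each start are from RefSeq (GRCh38.p14, chr16:56682220-56682469 and chr16:56608334-56608583, plus strand), 5′ to 3′, with matches to TGCACNC or TGCGCNC on either strand in capitals.
MT1X: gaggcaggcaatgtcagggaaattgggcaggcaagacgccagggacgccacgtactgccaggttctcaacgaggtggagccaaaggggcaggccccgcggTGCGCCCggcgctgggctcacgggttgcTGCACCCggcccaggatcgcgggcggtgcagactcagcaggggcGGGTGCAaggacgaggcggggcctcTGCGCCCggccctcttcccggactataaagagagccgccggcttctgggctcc
MT2A: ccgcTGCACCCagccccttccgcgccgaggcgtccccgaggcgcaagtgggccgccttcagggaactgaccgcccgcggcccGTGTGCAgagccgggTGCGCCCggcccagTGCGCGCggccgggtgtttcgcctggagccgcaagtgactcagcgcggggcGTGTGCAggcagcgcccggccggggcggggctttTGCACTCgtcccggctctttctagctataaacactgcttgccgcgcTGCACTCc
MT1X holds 4 matches and MT2A 7, while 24.8% of all 35116 promoters of this length hold at least 1. A match is a description of letters only. The gene with more matches, MT2A, had the smaller fold change.

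Cytosolic chaperones were raised broadly. HSP70 and HSP110 proteins refold or hold damaged proteins with the help of HSP40 co-chaperones, and HSF1 drives the inducible members. Of 10 tested HSP70 and HSP110 genes, 8 were called higher and 0 lower (median log2 fold change 0.43 per the authors' deposited table), and of 26 other heat shock genes 19 were called higher and 0 lower (median 0.25). The inducible members moved most. HSPA6, an HSP70 that is nearly silent without stress, had 28.3 and 19 scaled reads untreated and 809 and 737 treated (3.80, SE 0.15, adjusted p 7.94e-147 per the authors' deposited table). Its mean untreated level, 23.6, lay under the lowest base mean tested (28). HSPA6, counted among the 8, thus passed the low-read filter only through the treated libraries and had to differ. HSPA1B went from 643 and 661 to 7786 and 8151, 12.2-fold, and HSPA1A from 817 and 843 to 8266 and 9058, 10.4-fold. These 2 genes encode the same protein and are near-identical, so reads that map to both may be missing from both, and others may be assigned to the wrong copy. HSPH1, an HSP110 exchange factor, rose from 5781 and 5762 to 8272 and 8286 (0.50 per the authors' deposited table), and HSPA1L from 35.9 and 32.5 to 72.4 and 70.9 (0.61 per the authors' deposited table). By contrast the constitutive HSPA4 stood at 8142 and 8174 and 8272 and 8424 and was not called (0.01, adjusted p 0.847 per the authors' deposited table).

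Among the co-chaperones, DNAJB1, the HSP40 partner of inducible HSP70, rose from 2285 and 2230.5 to 10128 and 10297 scaled reads (2.13, SE 0.04, adjusted p listed as 0 per the authors' deposited table). ZFAND2A, an arsenite-inducible protein that binds the proteasome, rose from 351 and 380.5 to 1035 and 1060.4 (1.42 per the authors' deposited table). The HSP40 genes DNAJA4 and DNAJB4 rose 2.71-fold and 2.49-fold in scaled reads. HSPE1, the mitochondrial HSP10, went from 841 and 928 to 1733 and 1795, and CHORDC1, an HSP90 co-chaperone, from 1793 and 1986 to 3638 and 3492 (0.95 and 0.88 per the authors' deposited table). Every one of these rises separated the groups without overlap, as every called gene did. HSP90AB1, the constitutive HSP90, was not called at 52045 and 49917 and 53249 and 56085 scaled reads (0.08, adjusted p 0.0646 per the authors' deposited table), nor were UBB (0.08, adjusted p 0.148) and HSF1 itself (-0.05, adjusted p 0.498).

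Promoters of the 3 most strongly raised HSP70 genes are given to show how they differ in heat shock elements, the inverted repeats that HSF1 binds. They are the 250 bases before the start on the plus strand (RefSeq, GRCh38.p14, chr6:31815293-31815542, chr6:31827488-31827737 and chr1:161524290-161524539), 5′ to 3′, with GAANNTTC or TTCNNGAA on either strand in capitals.
HSPA1A: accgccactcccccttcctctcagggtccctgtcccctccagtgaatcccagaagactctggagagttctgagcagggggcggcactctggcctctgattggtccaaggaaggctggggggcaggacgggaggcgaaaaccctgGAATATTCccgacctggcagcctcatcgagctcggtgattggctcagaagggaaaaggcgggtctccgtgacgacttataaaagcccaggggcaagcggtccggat
HSPA1B: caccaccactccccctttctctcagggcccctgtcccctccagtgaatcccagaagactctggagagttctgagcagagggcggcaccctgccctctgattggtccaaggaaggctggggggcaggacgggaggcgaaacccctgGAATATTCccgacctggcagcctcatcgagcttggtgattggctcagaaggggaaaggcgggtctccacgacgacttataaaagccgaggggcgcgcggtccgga
HSPA6: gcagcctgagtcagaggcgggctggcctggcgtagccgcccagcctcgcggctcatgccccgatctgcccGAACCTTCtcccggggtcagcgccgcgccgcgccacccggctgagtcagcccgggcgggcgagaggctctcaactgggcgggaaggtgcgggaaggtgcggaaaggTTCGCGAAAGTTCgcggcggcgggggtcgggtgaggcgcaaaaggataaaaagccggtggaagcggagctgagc
HSPA1A and HSPA1B hold 1 match each, the same letters at nearly the same distance, and the 2 promoters are identical at 235 of 249 aligned bases. HSPA6 holds 3, of which 2 overlap. Of all promoters 11.6% hold at least 1 match.

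The antioxidant list moved less evenly. NRF2 controls genes of glutathione synthesis, thiol reduction, iron storage and haem breakdown. Of 25 tested genes 8 were called higher and 3 lower, with a median log2 fold change of 0.11 per the authors' deposited table. HMOX1 (ENSG00000100292), the inducible haem oxygenase, rose from 1019 and 976 to 5926 and 5815 scaled reads, 5.88-fold (2.49, SE 0.05, adjusted p listed as 0 per the authors' deposited table). The small MAF genes MAFF and MAFG, partners of NRF2 on DNA, rose to 0.76 and 0.44 per the authors' deposited table, MAFF from 837 and 899.8 to 1543 and 1492 scaled reads. GCLM, a subunit of the enzyme that limits glutathione synthesis, rose from 617 and 673 to 977 and 979, and the ferritin light chain FTL from 7179.5 and 6684 to 8456 and 7994 (0.56 and 0.23 per the authors' deposited table). The exporter ABCC1 fell, from 2947 and 2869.5 to 2435 and 2413 (-0.28 per the authors' deposited table). Core thioredoxin genes were not called. TXNRD1 stood at 0.03 (adjusted p 0.667) and TXN at -0.10 (adjusted p 0.244) per the authors' deposited table.

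Transcription factor genes of the immediate-early response rose. AP-1 is formed by FOS, JUN and ATF family proteins, and the EGR and IER genes are switched on by MAP kinases within minutes. Of 9 AP-1 genes 7 were called higher and 0 lower (median log2 fold change 0.67 per the authors' deposited table), and of 15 other immediate-early genes 8 higher and 1 lower (median 0.31). FOS went from 138 and 146 to 912 and 894 scaled reads, 6.37-fold (2.41, SE 0.11, adjusted p 1.49e-110 per the authors' deposited table). FOSB rose from 203 and 153 to 715 and 724, JUN from 3551 and 3627 to 11893 and 11822 and ATF3 from 777 and 712 to 1572 and 1634, with log2 fold changes of 1.80, 1.69 and 1.05 per the authors' deposited table. JUNB and FOSL1 followed at 0.67 and 0.49 per the authors' deposited table, while FOSL2 was not called (0.09, adjusted p 0.176). All 4 libraries kept the same order for each called AP-1 gene, treated above untreated, as for every gene called higher.

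EGR1, a zinc-finger factor, rose from 5002 and 4953 to 17598 and 17215 scaled reads (1.77 per the authors' deposited table). EGR2 rose from 44.6 and 42.5 to 296 and 271 and EGR4 from 6.5 and 4.5 to 67.4 and 79.9. EGR4, and HSPA6 among the chaperones, had untreated levels under the lowest base mean that was tested (28), so they passed the filter only through the treated libraries and had to differ. IER5 and IER2 rose in scaled reads, 2.17-fold and 2.03-fold. One gene of the family went the other way: IER3 fell from 1502 and 1556 to 968 and 903 (-0.70, SE 0.06, adjusted p 2.78e-27 per the authors' deposited table). NR4A3, an orphan nuclear receptor, was at 25 and 32.5 scaled reads untreated and 47.7 and 42.4 treated and was not called (0.32, adjusted p 0.255 per the authors' deposited table). The EGR1 promoter is printed because it carries 2 CArG boxes, the element of serum response factor, here in capitals (chr5:138465229-138465478, plus strand, 250 bases before the start, RefSeq, GRCh38.p14).
EGR1: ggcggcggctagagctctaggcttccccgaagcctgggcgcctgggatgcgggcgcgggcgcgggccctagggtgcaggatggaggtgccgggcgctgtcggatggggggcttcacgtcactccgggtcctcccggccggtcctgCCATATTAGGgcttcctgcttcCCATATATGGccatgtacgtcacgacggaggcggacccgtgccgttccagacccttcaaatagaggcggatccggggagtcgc
CArG boxes were found in 1.16% of all promoters.

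Genes that shut these signals down rose as well, though fewer of them. DUSP phosphatases remove the activating phosphates of MAP kinases. Of 13 tested feedback genes 6 were called higher and 0 lower (median 0.13 per the authors' deposited table), all of the called ones DUSP genes. DUSP2 rose from 557 and 594 to 2292 and 2405 scaled reads (1.94, SE 0.07, adjusted p 8.85e-192 per the authors' deposited table) and DUSP1 from 413 and 451 to 899 and 969.9 (1.03 per the authors' deposited table). DUSP10, DUSP8, DUSP16 and DUSP5 rose by smaller steps, between 0.19 and 0.48 per the authors' deposited table. Of 10 genes for proteins that bind AU-rich elements and control mRNA decay, 2 rose and 0 fell: ZFP36, itself an immediate-early gene, from 92.4 and 115 to 293 and 293 (1.22 per the authors' deposited table), and RC3H1 from 1222 and 1161 to 1463 and 1455. KLF factors were mostly not called, 9 of 12, as were most genes tested (10852 of 13635). KLF16 and KLF10 rose to 0.25 and 0.15, and KLF2, a factor held up by laminar flow in endothelium, fell from 425 and 466 to 324 and 316 (-0.45 per the authors' deposited table).

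Targets of ATF4 rose in part. Of 22 tested genes 9 were called higher and 1 lower, with a median log2 fold change of 0.13 per the authors' deposited table. DDIT3, which encodes the factor CHOP, rose from 327 and 316 to 1086 and 1070.2 scaled reads, 3.35-fold (1.63, SE 0.09, adjusted p 7.17e-78 per the authors' deposited table). PPP1R15A, the phosphatase subunit GADD34 that reverses eIF2alpha phosphorylation, rose from 2528 and 2467 to 4407 and 4697 (0.83 per the authors' deposited table). CHAC1, NUPR1 and DDIT4 rose by 0.73, 0.58 and 0.55 on the log2 scale per the authors' deposited table. The amino acid transporter SLC7A5 fell from 20388 and 20290.3 to 13910.4 and 13755 (-0.57 per the authors' deposited table), and its heavy chain SLC3A2 was not called (0.09, adjusted p 0.0582). Among p53 and GADD45 genes 5 of 17 rose and 0 fell: the survival factor MCL1 from 4437 and 4654 to 9828 and 9495 (1.06 per the authors' deposited table), GADD45B and GADD45A by 0.69 and 0.35, and CDKN1A, the CDK inhibitor p21, by 0.23 per the authors' deposited table. PLK2, PMAIP1 and TNFRSF10B were not called. Of 12 tested NF-kappaB targets 4 rose, NFKBIZ most, from 306 and 317 to 468 and 485, and 1 fell, the adhesion molecule ICAM1, from 2924 and 2937 to 2411 and 2476.

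The chaperones of the endoplasmic reticulum (ER) fell, in the opposite direction to their cytosolic relatives. These proteins fold and quality-check secreted and membrane proteins, and their genes rise when the ER is overloaded. None of 17 tested genes was called higher and 14 were called lower, with a median log2 fold change of -0.39 per the authors' deposited table, against 0.0094 over all genes. The lectin chaperone CALR (ENSG00000179218) fell from 19196 and 18620.5 to 12519 and 12721 scaled reads, by 33.3% (-0.60, SE 0.03, adjusted p 1.46e-73 per the authors' deposited table). Its membrane-bound relative CANX fell from 15788 and 15817 to 10719.9 and 10879, by 31.7%. The disulfide isomerases PDIA6, PDIA3 and PDIA4 fell to log2 fold changes of -0.58, -0.53 and -0.46, and DNAJC3, a co-chaperone that also restrains the kinase PERK, to -0.49 per the authors' deposited table. XBP1 (-0.08, adjusted p 0.485), HERPUD1 (-0.07, adjusted p 0.532) and DNAJB9 (-0.13, adjusted p 0.469), 3 genes that unfolded proteins in the ER commonly induce, were not called per the authors' deposited table. No called member overlapped between the groups, and neither did any other called gene.

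Enzymes of cholesterol and fatty acid synthesis, many of which sit in the ER membrane, fell in part. Of 18 tested genes 7 were called lower and 1 higher (median -0.077 per the authors' deposited table). The desaturase SCD fell from 7577 and 7270.0 to 5086 and 5120.2 scaled reads (-0.55 per the authors' deposited table). DHCR7 and SQLE fell to -0.54 and -0.47 per the authors' deposited table. HMGCS1, a cytosolic enzyme at the start of the pathway, rose from 2731 and 2711 to 3239.9 and 3230.1 (0.23 per the authors' deposited table).

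Genes that report on BMP, TGF-beta and Hippo signalling fell in part. ID proteins block differentiation factors and are direct BMP targets. Of 14 tested genes of the ID and feedback list 4 were called lower and 1 higher (median -0.18 per the authors' deposited table). ID1 (ENSG00000125968) fell from 1938 and 2027 to 817 and 816 scaled reads, by 58.8% (-1.26, SE 0.06, adjusted p 3.34e-99 per the authors' deposited table). ID3 fell from 681 and 805 to 521 and 491, NOG, a secreted BMP antagonist, from 983 and 1118 to 592 and 602, and the inhibitory SMAD7 from 780.2 and 782 to 674 and 692. SKIL, a repressor of SMAD signalling, rose from 1202 and 1285 to 1504 and 1411 (0.21 per the authors' deposited table). Of 12 YAP targets 4 were called lower and 2 higher (median -0.051 per the authors' deposited table). CCN1 (ENSG00000142871), a matrix protein and classical YAP target, fell from 15799 and 15736 to 8448 and 8522, by 46.2% (-0.91, SE 0.03, adjusted p 1.89e-175 per the authors' deposited table). CCN2, its relative, fell by 12.9%, from 8895 and 9496 to 8178 and 7836, and the membrane proteins CRIM1 and AXL to -0.45 and -0.41 per the authors' deposited table. ANKRD1 and LATS2, also YAP targets, rose to 0.27 and 0.28 per the authors' deposited table. The list therefore held changes in both directions.

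Host genes of small nucleolar RNAs carry these RNAs in their introns and yield short spliced transcripts that are decayed when translated. Of 17 tested hosts 10 were called lower and 0 higher, with a median log2 fold change of -0.37 per the authors' deposited table. SNHG3 fell from 1391 and 1382 to 767 and 672 scaled reads (-0.92, SE 0.07, adjusted p 1.86e-37 per the authors' deposited table). SNHG4 fell from 1195 and 1341 to 694 and 645, ZFAS1 from 839 and 729.7 to 414 and 412, SNHG12 from 505 and 496 to 247 and 266 and SNHG5 from 137 and 164 to 65.1 and 67.6 (-0.90, -0.89, -0.90 and -0.89 per the authors' deposited table). SNHG1 fell to -0.42. SNHG16, SNHG17 and SNHG29 were not called (0.02, adjusted p 0.813, -0.07, adjusted p 0.572 and 0.03, adjusted p 0.654 per the authors' deposited table). Several of these genes overlap others, and whether the counting used the strand is not stated, so their reads may include those of neighbours.

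RN7SL1 (ENSG00000276168), the RNA of the signal recognition particle that brings secretory mRNAs to the ER, fell from 4249.9 and 4265 to 1802 and 1844 scaled reads, by 57.2% (-1.23, SE 0.04, adjusted p 9.17e-173 per the authors' deposited table), and its copy RN7SL3 from 461 and 458 to 210.5 and 239. RN7SL1 has many near-identical copies and no usual poly-A tail, and the libraries were selected for poly-A, so its reads are uncertain. The lowest value of all belonged to SMPD4P1, a pseudogene that can take reads from SMPD4, at 838 and 784 and 266 and 245 (-1.56 per the authors' deposited table). MAMDC4 (365 and 330.2 against 158 and 139), MROH6 (1554 and 1528 against 764 and 757) and the antisense RNA PRR7-AS1 (154 and 176 against 77.5 and 53) also fell, MAMDC4 and PRR7-AS1 to -1.08 and -0.98 per the authors' deposited table. Most ribosomal protein genes were not called, as were most genes tested (10852 of 13635). Of 79, 8 were called lower and 4 higher, 67 were not called, and the median was -0.034 per the authors' deposited table. Over all genes tested 12.2% were called lower and 8.18% higher. RPL36A fell from 434 and 452 to 231 and 214 (-0.91 per the authors' deposited table). FAU rose from 1924 and 1813 to 2349.6 and 2441. RPL8 and RPS2 stood at -0.01 (adjusted p 0.934) and 0.01 (adjusted p 0.945) per the authors' deposited table.

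Of 23 RNA-binding proteins of stress granules 3 were called higher and 3 lower (median 0.054 per the authors' deposited table), near the shares over all genes tested (8.18% and 12.2%). One of the higher ones is G3BP1, whose reads are those of the transgene. NUFIP2 rose to 0.25, while ATXN2L (-0.21), DDX3X (-0.12) and UBAP2L (-0.12) fell slightly per the authors' deposited table. PABPC1 and YBX1 were not called (0.05, adjusted p 0.208 and 0.05, adjusted p 0.295 per the authors' deposited table). Splicing regulators rose by small steps: 8 of 17 SR proteins and CLK kinases were called higher and 0 lower (median 0.14), led by CLK1, a kinase of SR proteins, from 736 and 731 to 1279 and 1282 scaled reads (0.76, SE 0.07, adjusted p 5.4e-27 per the authors' deposited table), with TRA2B, SRSF5, TRA2A, SRSF6 and SRSF4 between 0.14 and 0.25. Proteasome subunits had 1 gene called higher of 31, PSMC6 (0.26 per the authors' deposited table), and none lower. G2/M genes had 1 higher, CENPE (0.24), and 1 lower, TPX2 (-0.16 per the authors' deposited table), of 18. Interferon-stimulated genes had 1 lower, IFI6, and none higher of 7 tested. A log2 fold change had a median SE of 0.086 at base means of at least 100, so changes much smaller than this are not detectable here.

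**Figure D2:**
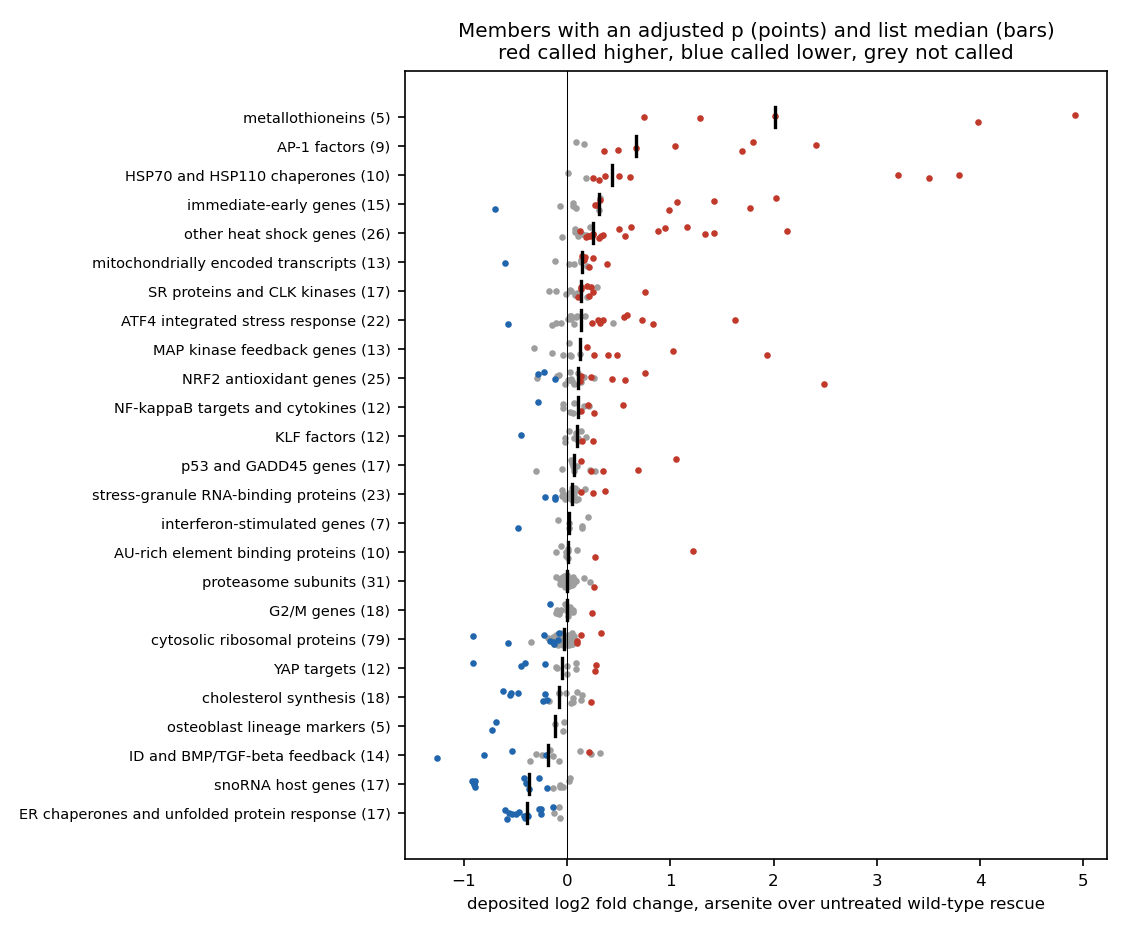
Deposited log2 fold change (x axis, arsenite over untreated wild-type rescue) of each member with an adjusted p, by list (y axis, number of tested members in brackets, lists with at least 5), with the list median as a black bar, red for members called higher, blue for lower and grey for not called. Metallothioneins, at a median of 2, lie at the top and ER chaperones, at -0.39, at the bottom.

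Called genes were then compared by features that the comparison did not use, as descriptions with no test. The 28 genes called higher by at least 1 were short: 27 of them had a RefSeq entry and a median genomic span of 3.4 kb, against 30.1 kb over all tested genes, 32.6 kb over all genes called higher and 17.4 kb over the 355 genes called lower by at least 0.5. Binding to G3BP1 came from a table of the same series that compared immunoprecipitated with input RNA in embryonic kidney cells (FlpIn 293 Trex) expressing FLAG-G3BP1. A gene was taken as enriched there when its adjusted p was under 0.05 and its log2 enrichment 1 or more. By this rule 99 of 1091 genes called higher were enriched (9.07%), 324 of 1592 called lower (20.4%) and 2533 of 12941 tested in both tables (19.6%). The share of bound genes was thus lower among raised genes and close to the background among lowered genes. Of the 28 genes raised by at least 1, 21 matched the promoter table, with 30 promoters. Heat shock motifs were found in 9 of these (30%, against 8.91% of promoters of tested genes), metal response motifs in 13 (43.3% against 31.9%), the antioxidant motif TGACNNNGC in 7 (23.3% against 11.8%), the AP-1 motif TGANTCA in 4 (13.3% against 4.56%) and the cAMP response motif TGACGTCA in 1 (3.33% against 2.48%), both strands searched. With so few promoters these shares carry large counting error.

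Whether the response differed from that of knockout cells was tested with an interaction term in limma over all 12 libraries of the experiment. The estimate is the log2 response in wild-type rescue minus that in knockout cells, and the backgrounds share no library. Their libraries differed in make-up: reads that matched no gene were 25.8% to 28% in knockout cells and 17.6% to 19.1% in wild-type rescue. Knockout libraries also differed more within a group, with mean squared standardised differences of 3.06 untreated and 3.37 treated. The part of this in the differences below was not tested. Of 16654 genes, 1088 had a larger value in wild-type rescue (6.53%) and 737 a smaller one (4.43%). The difference of the deposited fold changes gave 285 larger and 420 smaller, the opposite order, and leaving out 1 untreated or the deeper treated wild-type library gave 642 to 719 larger, so neither the count of larger values nor which direction has more is firm. Of the genes called higher in wild-type rescue 51.8% were also called higher per the authors' deposited table for knockout cells, which is 43.6% of the knockout's higher genes (8.56% of genes tested there). For lower genes the shares were 66.5% and 65.8% (10.9% of genes tested). Genes called in opposite directions numbered 4 higher and 26 lower in wild-type rescue.

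The immediate-early genes differed most. Responses were smaller in wild-type rescue for 7 of 9 AP-1 genes (median difference -2.6), 13 of 15 other immediate-early genes (median -1.9) and 6 of 13 MAP kinase feedback genes, and larger for none of them. Against NTF2-deletion rescue the same test called none of these genes, with median differences of 0.14, 0.16 and 0.027. FOSB went from 25 and 22.2 to 7889 and 8934 scaled reads in knockout cells, against 203 and 153 to 715 and 724 in wild-type rescue, a difference of -6.42 (SE 0.33, adjusted p 4.53e-20). Wild-type rescue thus started higher and ended lower. ATF3 went from 206 and 242 to 16003 and 16811 in knockout cells, a difference of -5.10 (SE 0.12, adjusted p 4.91e-33) from the rise in wild-type rescue given above. NR4A3, not called in wild-type rescue, rose from 4.4 and 9.9 to 696 and 743 in knockout cells, with a difference of -6.01 (SE 0.53, adjusted p 3.5e-12). So few untreated knockout reads leave the size of this difference uncertain. FOS went from 71.9 and 83.9 to 6575 and 6546 (-3.73, SE 0.19, adjusted p 8.01e-20). EGR4, from 1.1 and 2.5 to 1193 and 1004 scaled reads, HSPA6, from 0 and 4.9 to 1623 and 992, and the keratin-associated KRTAP2-3, from 0 and 3.7 to 19.8 and 17.8, had so few reads in untreated knockout cells that their differences (-5.33, -4.48 and -3.85) are uncertain in size. Without the first untreated knockout library the calls of HSPA6 and KRTAP2-3 were lost, and the deposited fold changes of HSPA6 would reverse its sign.

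Some genes moved in opposite directions in the 2 backgrounds. CCN1 rose from 4961 and 5056 to 27209.5 and 25241 scaled reads in knockout cells and fell in wild-type rescue, a difference of -3.28 (SE 0.05, adjusted p 8.98e-39), and CCN2 did the same (4819 and 4534 to 41867 and 39944 in knockout cells, difference -3.32, SE 0.06, adjusted p 1.32e-38). IER3 rose from 2053 and 2218 to 2783 and 2634 in knockout cells and ID3 from 267 and 328 to 413 and 445, where both fell in wild-type rescue (differences -1.05, SE 0.08, adjusted p 8.02e-14 and -1.09, SE 0.14, adjusted p 1.3e-07). Scaled reads of CCN1, CCN2, IER3 and ID3 fell in NTF2-deletion rescue too, by 48.6%, 13.8%, 28% and 18.5%, the fall of ID3 not called. Untreated levels of CCN1 and CCN2 were higher in wild-type rescue than in knockout cells, as those of most AP-1 genes were.

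**Figure D3:**
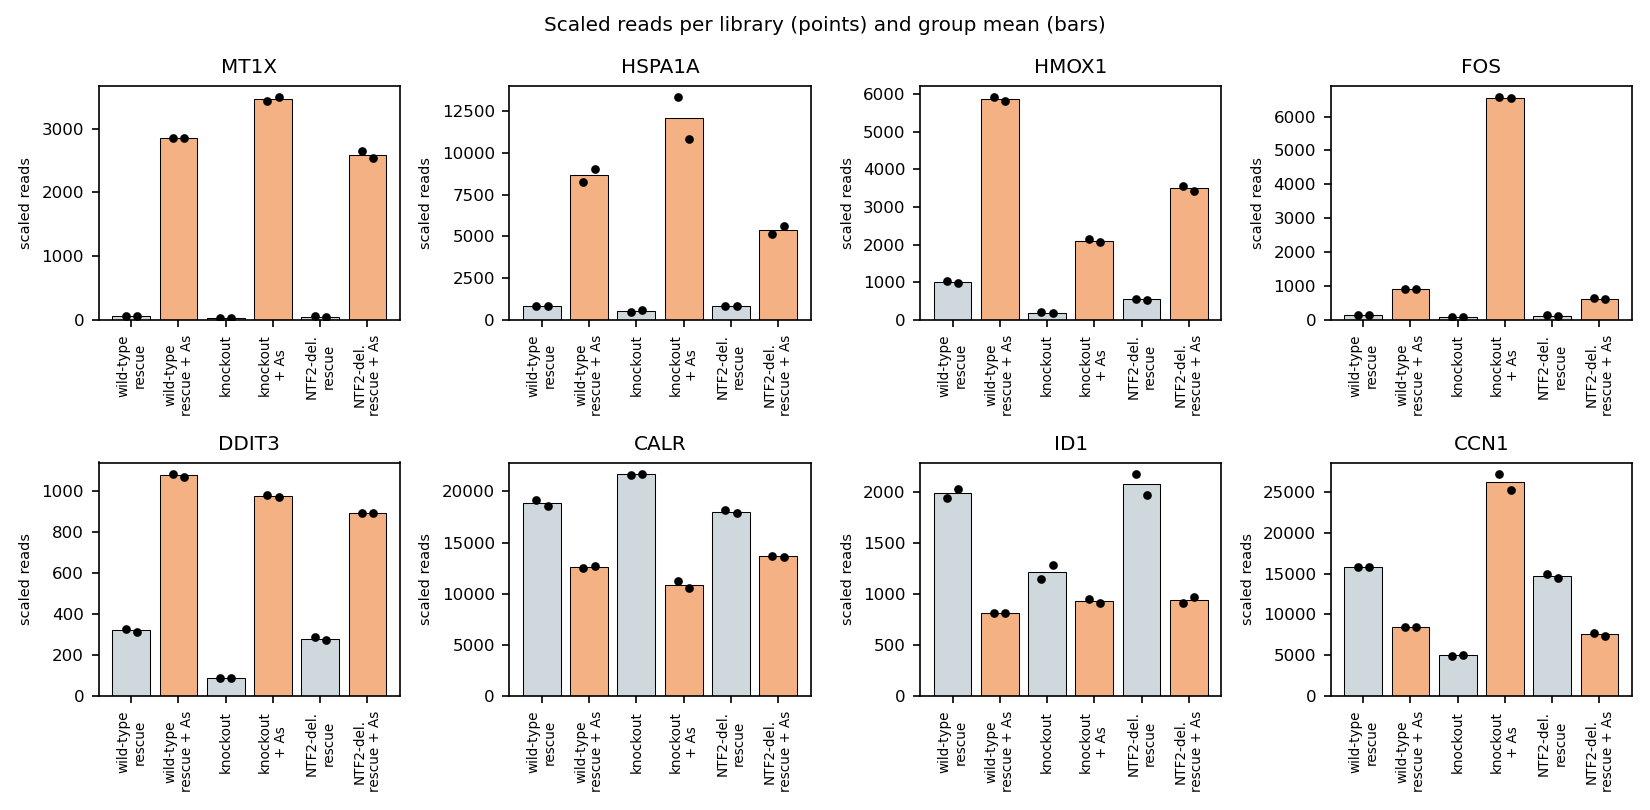
Scaled reads (y axis, from 0) of 8 genes in the 6 groups (x axis, + As for arsenite), with 1 point per library and bars at the mean of 2 libraries. FOS reaches 6575 and 6546 in treated knockout cells against 912 and 894 in treated wild-type rescue, and CCN1 rises in knockout cells but falls in both rescues.

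Metal-binding, heat shock and some ATF4 genes also rose less in wild-type rescue than in knockout cells. The difference was called smaller for 5 of 5 metal-binding genes (median -1.2), 5 of 10 HSP70 and HSP110 genes (median -0.65), 15 of 26 other heat shock genes and 7 of 22 ATF4 genes, while 1 heat shock and 3 ATF4 genes had larger values. MT2A went from 2004 and 2112 to 15390.1 and 13916 in knockout cells, so it ended lower there but rose by more, from a lower start (difference -2.06, SE 0.07, adjusted p 4.87e-27). MT1X reached 3435 and 3493 in knockout cells (difference -1.20, SE 0.29, adjusted p 0.00434). HSPA1A reached 13351 and 10835 from 488 and 581 (-1.13, SE 0.13, adjusted p 6.6e-09), and DDIT3 rose 11-fold in knockout cells (-1.71, SE 0.17, adjusted p 1.04e-10). HMOX1 ended higher in wild-type rescue than in knockout cells, where it went from 198 and 175 to 2137 and 2078, and still rose by less (-0.93, SE 0.12, adjusted p 1.13e-07). The NRF2 list as a whole did not go this way, with 5 of 25 genes smaller, 3 larger and a median difference of 0.086. Against NTF2-deletion rescue the same test called 0 of 5 metal-binding and 0 of 22 ATF4 genes (median differences -0.024 and -0.016). There 1 of 10 HSP70 and HSP110 genes and 2 of 26 other heat shock genes were called, larger in wild-type rescue.

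The falls of ER genes were weaker in wild-type rescue than in knockout cells. For 14 of 17 ER chaperone and unfolded protein response genes the difference was called larger, and for none smaller (median 0.38). Against NTF2-deletion rescue 0 of 17 were called, with a median difference of -0.14. CALR fell from 21641 and 21734 to 11287 and 10529 in knockout cells, by 49.7% against 33.3% in wild-type rescue (difference 0.41, SE 0.05, adjusted p 1.98e-08), and PDIA6 by 49.7% against 32.4%. Of 17 small-nucleolar-RNA hosts 3 had larger values, SNHG3 among them (0.75, SE 0.11, adjusted p 5.4e-06). Proteasome subunits, of which 1 was called in wild-type rescue, had 7 of 31 larger. The largest positive differences among well-read genes were those of FAM172A (1.05), BTN3A2 (0.96), NDUFC2 (0.89), IFT20 (0.87), PTN (0.85) and PHLDA1 (0.85). All 6 had fewer reads in treated than in untreated knockout libraries, and none was called in wild-type rescue. The difference that selected these genes uses the same knockout libraries, so their falls there are no separate evidence. FAM172A, for one, went from 169.8 and 160.3 to 102 and 113 in knockout cells and from 104 and 114 to 136 and 166 in wild-type rescue.

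**Figure D4:**
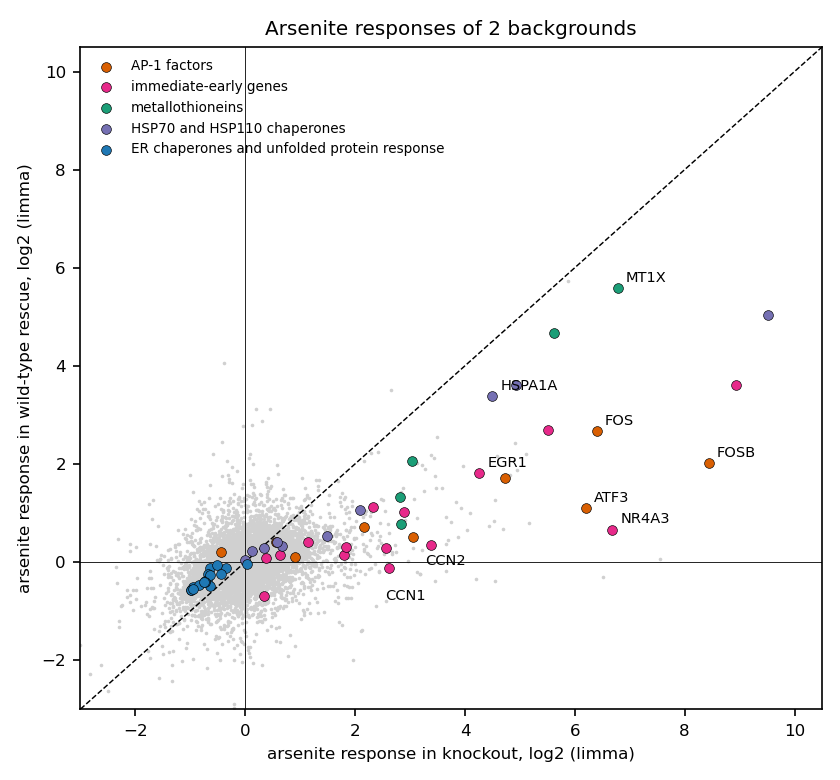
Arsenite response in wild-type rescue (y axis) against that in knockout cells (x axis), both log2 estimates from limma, 1 grey point per gene and coloured points for 5 lists, with a dashed line where both are equal. AP-1, immediate-early, metallothionein and HSP70 genes lie mostly below the line, ER chaperones mostly above it at negative values, and CCN1 and CCN2 at negative values on the y axis only. HSPA6, the rightmost point, EGR4 and NR4A3 rest on few untreated knockout reads.

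Few genes passed the test for a difference between the responses with wild-type G3BP1 and with the NTF2-deletion form. The interaction term called 4 genes with a larger value in wild-type rescue (0.024%) and 18 with a smaller one (0.108%) of 16654, and 1160 had an unadjusted p under 0.05. The median SE of a difference was 0.11 at a mean of at least 100 scaled reads, so smaller differences, and some several times this size, could pass unseen. On simulated data the same test found 37 of 50 genes changed 2-fold but only 15 of 50 changed 1.5-fold. The simulation gave every gene the same assumed spread and changed genes with a mean of at least 10 scaled reads, so its rates need not hold for these data. Few calls therefore do not show that the 2 responses were equal. In the deposited tables, 84% of the genes higher in NTF2-deletion rescue (2.43% of genes tested there) were also higher in wild-type rescue, which is 21.1% of the latter's higher genes. For lower genes the shares were 95.6% (6.14% of genes tested there) and 40.8%.

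The genes with a larger response in wild-type rescue were 3 chaperone genes and G3BP1 itself. HSPA1A went from 815 and 838 to 5166 and 5619.5 scaled reads in NTF2-deletion rescue, against 817 and 843 to 8266 and 9058 in wild-type rescue, so untreated levels matched and treated levels did not overlap (difference 0.67, SE 0.12, adjusted p 0.00327). HSPE1 went from 998 and 1123 to 1431 and 1592 (difference 0.48, SE 0.10, adjusted p 0.0188) and DNAJB1 from 2153 and 2037 to 7313 and 7273 (0.38, SE 0.08, adjusted p 0.039). HSPA1B, near-identical to HSPA1A, had a difference of 0.58 (SE 0.14, adjusted p 0.104) and was not called. G3BP1 differed by 0.15 (SE 0.03, adjusted p 0.022), a difference between transgenes.

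Of the 18 genes with a smaller value, 17 were called lower in wild-type rescue, where 12.2% of all genes tested were. The difference that selected them uses the same wild-type libraries, so this is no separate evidence. RN7SL1 stood at 4039.5 and 3827 untreated and 4458 and 4748 treated in NTF2-deletion rescue, where it fell in wild-type rescue (difference -1.45, SE 0.18, adjusted p 5.44e-06), and RN7SL3 at 479 and 438 and 451 and 532 (-1.14, SE 0.17, adjusted p 0.000255). The knockout libraries disagreed on RN7SL1, with 4166 and 7915 scaled reads untreated. SPP1, the secreted matrix protein osteopontin, went from 425 and 375.4 to 394 and 385 in NTF2-deletion rescue and from 551 and 617 to 336 and 351 in wild-type rescue (-0.73, SE 0.13, adjusted p 0.00354). MMP3, a secreted matrix metalloproteinase, was at 5249.6 and 5453 and 5296 and 5287 in NTF2-deletion rescue and fell from 9136 and 8758 to 5740.0 and 6072 with wild-type G3BP1 (-0.59, SE 0.06, adjusted p 1.33e-08). PRDX4, the ER peroxiredoxin, fell from 1295 and 1209 to 742 and 768 and ATP6V0B, a subunit of the vacuolar proton pump, from 2489.5 and 2546 to 1732 and 1852, with differences of -0.42 (adjusted p 0.0336) and -0.41 (adjusted p 0.00622). For SPP1 and MMP3 the untreated levels differed between the rescues while the treated levels lay closer together.

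The other 12 genes with a smaller value fall outside the naming rule and were chosen with their values in view. They are NID1 (-0.39), SYPL1 (-0.37), CTSB (-0.31), BSG (-0.31), CERS2 (-0.31), EMP1 (-0.29), CD63 (-0.28), TMBIM6 (-0.24), the mitochondrial ribosomal RNAs MT-RNR1 (-0.31) and MT-RNR2 (-0.24), and, with few reads, MMP1 (-1.24) and BIRC7, whose reads are too few for a size. NID1 is a basement membrane protein, CTSB a lysosomal protease, and BSG, EMP1, CD63, SYPL1, CERS2 and TMBIM6 are membrane proteins. CD63, for one, fell from 7723 and 7553 to 5316 and 5396 in wild-type rescue and from 6843 and 6897 to 5811 and 5898 in NTF2-deletion rescue. These calls depended on the fit: over only the 8 libraries of both rescues limma called 17 larger and 103 smaller, limma with a trend in place of voom weights 1 and 2, and leaving out any 1 library left at most 2 larger and 11 smaller.

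**Figure D5:**
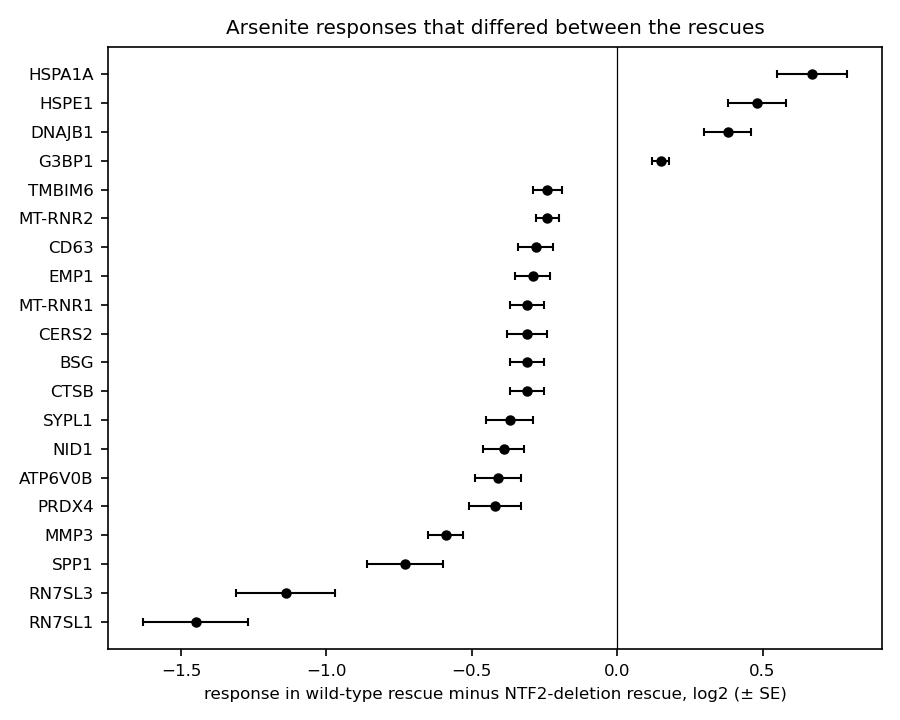
Difference between the arsenite responses (x axis, log2, wild-type rescue minus NTF2-deletion rescue, points with SE from limma) of 20 called genes (y axis). These are all called genes except MMP1 and BIRC7, which had few reads. Values run from -1.45 for RN7SL1 to 0.67 for HSPA1A.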

How the data were processed

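Directional libraries were made from poly-A-selected RNA, per the labels' protocols. Aligner settings, annotation, genome build and whether counting used the strand are not given in the sources used here; STAR and DESeq2 2.11.40.6 are named in the submitters' processing notes. Only the authors' comparison tables were used. As a signal, the deposited base mean is the authors' average of normalised reads over 4 libraries. The deposited fold changes are log2 values with the authors' standard errors, moderated toward 0, the deposited Wald statistic is a score, and the deposited p-value and adjusted p-value are the authors' own. The authors' call (adjusted p under 0.05) is the main test of the response.

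Base means are printed to 15 digits, so the whole reads of all 12 libraries were solved from 7 tables that share them (sympy 1.14.0, lattice reduction, Python 3.11.15). This gave whole reads for 17945 of 17945 genes whose base mean is 10 or more and was shown to be the only solution for 17941; G3BP1, MT-CO1, MT-ND4 and MT-RNR2 are the others. The reads of a group carry no replicate numbers. They were scaled by the median of ratios. Differences between responses were tested with limma-voom (limma 3.58.1, R 4.3.3) over genes with a mean of at least 10 scaled reads, Benjamini-Hochberg adjusted, 6 residual degrees of freedom. On simulated data with 200 changed genes of 16703, and the same assumed spread for every gene, the test recovered 136 against knockout with 7 false calls. Against NTF2-deletion rescue it recovered 141 with 8. No count model other than limma-voom was fitted to the recovered reads.

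The comparison, gene lists, tests and alternatives were chosen with earlier results of these data known. Named genes are G3BP1 and G3BP2, the 10 highest and 10 lowest fold changes among called genes (base mean 100 or more), up to 6 called and 3 uncalled members of each list, and 6 genes at each end of each difference with a mean of at least 100; exceptions are stated, and a few genes the rule names are not reported here. Symbols came from the tables (35097) and the name table (8766 more), gene spans and promoters from RefSeq. Alternatives were other scalings, filters, fits, fold-change minimums and leaving out each library.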

Additional observations from a re-analysis of the deposited data

Results flagged for a closer look

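Results whose 2 backgrounds differed by a test of the difference are listed here with their limma estimates on the log2 scale, wild-type rescue minus the other background. Against knockout cells 1088 genes had a larger and 737 a smaller value. The smallest, among genes with a mean of at least 100 scaled reads, were FOSB (-6.42), NR4A3 (-6.01), EGR4 (-5.33), ATF3 (-5.10), HSPA6 (-4.48) and KRTAP2-3 (-3.85). Of these NR4A3, EGR4, HSPA6 and KRTAP2-3 rest on few untreated knockout reads. NR4A3 and EGR4 reached that mean only through the treated knockout libraries. The largest were FAM172A (1.05), BTN3A2 (0.96), NDUFC2 (0.89), IFT20 (0.87), PTN (0.85) and PHLDA1 (0.85).

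Against NTF2-deletion rescue 4 genes had a larger and 18 a smaller value. The larger ones were HSPA1A (0.67), HSPE1 (0.48), DNAJB1 (0.38) and G3BP1 (0.15), and the smallest RN7SL1 (-1.45), RN7SL3 (-1.14), SPP1 (-0.73), MMP3 (-0.59), PRDX4 (-0.42) and ATP6V0B (-0.41). Groups of 2 libraries are too small for a check of single outlying libraries.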

How the results depend on the processing

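Limma-voom on the recovered reads called 1836 genes higher, and 2310 when scaled by gene reads without G3BP1, against 1116; these settings gave 2229 and 1994 lower against 1667, so the share of higher against lower calls turned with this scaling. A change of at least 0.5 left 119 higher and 355 lower, and of at least 1 28 and 6. Without 1 library limma called 1122 to 1571 higher and 1760 to 1975 lower. Other filters and centring stayed within 1.5 times. Against knockout, the difference of the deposited fold changes gave 285 larger and 420 smaller values in place of 1088 and 737. It reversed HSPA6 to 2.88. The deposited log2 fold change of HSPA6 in knockout cells was 0.92, while its mean scaled reads there went from 2.5 to 1307.3. Deposited fold changes are moderated toward 0, and the part of this in the reversal and in the counts was not tested. Leaving out 1 library gave 642 to 1045 and 519 to 778, lowest for the larger values without the first untreated wild-type library (642), without the other (719) and without the deeper treated one (689). Against NTF2-deletion rescue, larger and smaller values numbered 16 and 36 from the deposited fold changes, 1 and 2 with limma-trend, 17 and 103 over 8 libraries, and 0 to 2 and 4 to 11 without 1 library, whichever it was. Of 1140 alternative values of 228 named response genes 1049 kept their call or stayed within 1 SE, 21 lost and 42 gained a call, 28 moved by more than the SE and none changed direction. The named differences held less well: of 285 alternative values of 22 genes 64, in 14 genes, lost their call. Of 62 alternative list medians 2 moved by more than the members' median SE. No paired analysis was possible because the recovered libraries of a group cannot be tied to a numbered sample. The 2 libraries of each group limit every test here.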

Other observations

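Among genes named ZNF and a number, which encode zinc-finger factors, 74 were called higher, 2 lower and 299 not called, with a median log2 fold change of 0.17 per the authors' deposited table, where 8.18% of all genes tested were called higher. These factors have many similar paralogs, so reads may be missing or assigned to another gene. Against knockout cells 16 of 405 had a smaller and 5 a larger response, where 4.43% of all genes tested had a smaller and 6.53% a larger one. Antisense and LINC RNAs were called higher in 14 and lower in 23 of 422 tested, and histone genes in 1 and 6 of 24, per the authors' deposited table. Of all genes tested 8.18% were called higher and 12.2% lower. Most histone mRNAs lack a poly-A tail.

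Mitochondrially encoded mRNAs moved in both directions. Called higher were 6 of 13 and lower 1, with a median of 0.15 per the authors' deposited table. MT-ATP8, a subunit of ATP synthase, rose from 10069 and 9038 to 13726 and 12223 scaled reads (0.39 per the authors' deposited table). MT-ND6, the only one of these mRNAs encoded on the light strand, fell from 7789 and 7795 to 5097 and 5248 (-0.60, SE 0.04, adjusted p 3.98e-61 per the authors' deposited table), and fell too in knockout cells (5049.6 and 5745 to 4119 and 4294) and in NTF2-deletion rescue (7739.8 and 8937 to 5063 and 5114). Whether the counting used the strand is not stated, so reads of MT-ND6 may include those of the opposite strand. TAGLN, an actin-binding protein named after its values were seen, rose from 698 and 655 to 1052 and 1201 in wild-type rescue and from 272 and 322 to 6780.2 and 6074 in knockout cells (limma difference -3.72, SE 0.12, adjusted p 4.94e-27).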
